A study of Arabidopsis thaliana with 21 samples.

Results

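The genes described here are the 100 nuclear genes of Arabidopsis thaliana whose transcript level in cells sorted from the CALS7 reporter line stood furthest above the level in any of 5 other reporter lines. Levels are given as CPM, a gene's read count divided by the total count of its library, on the usual scale. A gene had to reach 10 CPM in all 4 CALS7 libraries, which 8056 of the 33602 genes in the files did, leaving out 1 histone H2B gene that the rule excludes. These 8056 were ordered by the margin, the log2 ratio of the mean in the CALS7 line to the highest mean among the other 5 lines, with 1 CPM added to each, and the first 100 were kept. The margin therefore chose the members, and every comparison of the CALS7 line with another line is given below as a description, with no test.

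The study sequenced RNA from fluorescent protoplasts (cells freed of their wall by enzymes) sorted out of the roots of 5-day-old seedlings, in 21 libraries of 6 lines. In the CALS7 line (n = 4) the promoter of CALS7, spelled pCASL7 in the label, drove a nuclear H2B-YFP, and pS32 drove an RFP of the endoplasmic reticulum (erRFP). The NAC73 line (n = 4) had the same pair of reporters with the promoter of NAC73 in place of that of CALS7. In the NAC57 line (n = 3) GFP was driven by pNAC57, and a second reporter, H2B-RFP, by pCALS7. In the PEAR1 (n = 4) and PEAR1-DBOX (n = 2) lines pPEAR1 drove YFP, in the latter joined to a destruction box, a signal for protein breakdown in the cell cycle, and in CVP2-DBOX (n = 4) pCVP2 drove such a YFP. All carry a transgene that marks cells by promoter activity. No group is without one. The sources used here state neither the colour used for sorting, nor the number of transformants behind a line, nor whether its libraries came from separate plantings, so that the p-values below measure only the spread between these libraries.

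Sieve elements are the conducting cells of the phloem. While they mature they deposit callose around the pores of their end walls, thicken their walls and then lose the nucleus and most organelles, which is a large breakdown of cell contents that leaves a living cell. The proteasome is the protease complex that degrades proteins tagged with ubiquitin: its barrel-shaped core particle holds the active sites, a regulatory particle of ATPases and other subunits unfolds the substrates, and activators such as PA200 can cap the core in its place.

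The CALS7 gene (AT1G06490), a callose synthase of sieve plates, was at 4147, 4159, 3859 and 3931 CPM in the 4 CALS7 libraries. It was at 1362, 3106, 1476 and 3843 CPM in the 4 NAC73 libraries and at a mean of 254 or less in the other 4 lines. By file totals the CALS7 libraries were thus the highest of the 21 for the gene that names the line, with NAC73 replicate 4 close below. This order depends on the scaling. With the TMM correction described below, NAC73 replicates 2 and 4 lie above all 4 CALS7 libraries. The gene's margin of log2 0.72 by file totals put it at rank 159, outside the 100. Late sieve element genes, a list of 17, summed to between 18181 and 22058 CPM in the CALS7 line, between 26081 and 37905 CPM in the NAC73 line and at most 2880 CPM in any other library. Only 1 of them, NAC028, is a member, and 3 of the 16 past the CPM minimum had a margin above 0. So the 100 genes are not the sieve element markers of this list. NAC057 (AT3G17730) had its lowest mean of the 6 lines in the line labelled NAC57, with 23.3 ± 10.6 CPM (SD, n = 3), against 453 ± 31.7 CPM (n = 4) in the CALS7 line, so that directions that involve the line labelled NAC57 are statements about libraries with that label.

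Library totals lay between 23513921 and 36198012 counted reads. The share of reads from mitochondrial genes was 2.16% to 2.57% in the CALS7 libraries and at most 1.85% elsewhere. A summed level of 3 root cap genes was 12.9 to 57.9 CPM in the CALS7 line, 0.341 to 41.4 CPM in the NAC73 line and at most 15.1 CPM in the other lines. Scaling by TMM, edgeR's correction for library composition, divided the NAC73 levels by factors of 0.503 to 0.786, the CALS7 levels by 0.895 to 1.15 and the PEAR1 levels by 1.18 to 1.36. It thereby raised NAC73 against the CALS7 line and lowered PEAR1.

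Members had margins from log2 2.19, or 4.56-fold, at rank 1 to 0.90, or 1.86-fold, at rank 100, with a median of 1.08. The median over the 8056 genes was -0.56, and 20.3% of them (1637 genes) had a margin above 0. A margin of at least 2-fold was held by 72 members. Inside the limit, ranks 96 to 100 were AT1G20550 (an O-fucosyltransferase family gene), NAC028, AT3G25700 (an aspartyl protease family gene), AT3G53970 (a proteasome inhibitor-like gene) and PRA1.B3, with margins from 0.91 to 0.90. Just outside it, the genes that followed included AT5G26760, CYP89A9, MAPKKK16 and NRB4, with margins from 0.89 to 0.88. No gap in the margin separates the members from the genes that follow.

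**Figure D1:**
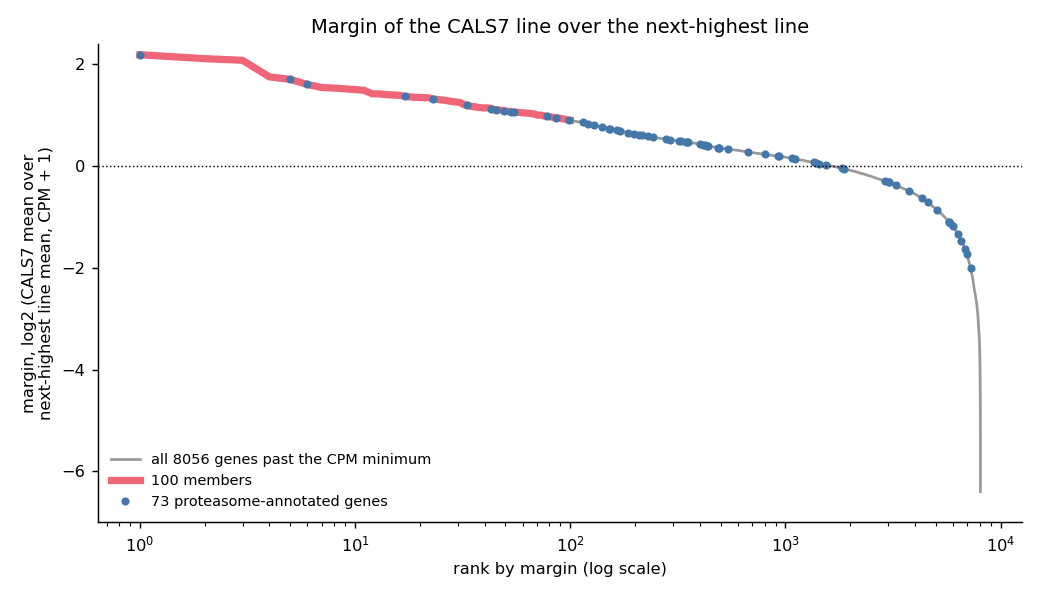
Margin (log2 ratio of the CALS7 line mean to the next-highest line mean, after adding 1 CPM, vertical axis) against rank (log axis) for the 8056 genes past the CPM minimum, with the 100 members in red and the 73 proteasome-annotated genes among the 8056 as blue points. The curve falls without a step at rank 100, and most of the blue points lie above 0.

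Summed over the 100 members, the level was 27556, 25538, 28775 and 27774 CPM in the 4 CALS7 libraries. Elsewhere the sum was lower. It was 10766 ± 1066 CPM for NAC73 (SD, n = 4), 9656 ± 681 CPM for NAC57 (n = 3), 7669 ± 373 CPM for CVP2-DBOX (n = 4) and 7468 ± 339 CPM for PEAR1 (n = 4). The 2 PEAR1-DBOX libraries were at 5650 and 7631 CPM. All 4 CALS7 libraries were above all 17 others for 87 of the 100 members, where 5.16% of the 8056 genes (416) had that order. The next-highest line was NAC73 for 52 members, NAC57 for 26, PEAR1 for 13, PEAR1-DBOX for 5 and CVP2-DBOX for 4. Over the 8056 genes the line ranked highest after leaving out CALS7 was NAC73 for 26.4% and NAC57 for 29.5%. Relative to the CALS7 mean, the median member was at log2 -1.26 in the NAC73 line, -1.43 in the NAC57 line, -1.74 in the PEAR1 line, -2.09 in the CVP2-DBOX line and -2.12 in the PEAR1-DBOX line.

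The margins were smaller with libraries scaled for composition, which raises the levels of NAC73, the most frequent runner-up. On the TMM scale the members' median margin was 0.46, with a lowest value of 0.07, and 47 of the 100 were again among the first 100. The 99 members still past the CPM minimum all kept a margin above 0 there. With median-of-ratios (RLE) library sizes the median margin was 0.59, 38 members returned and all 100 stayed above 0.

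**Figure D2:**
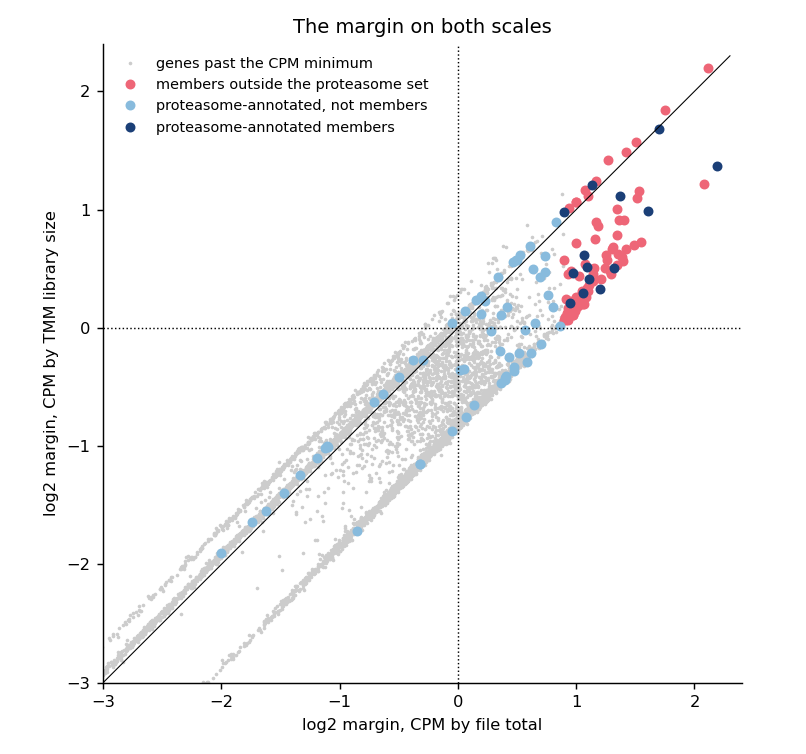
Each gene's log2 margin of the CALS7 line over the next-highest line with CPM by file total (horizontal axis) and with TMM library sizes (vertical axis), the diagonal marking equal values. Members lie right of and above the dotted zero lines on both axes, while the proteasome-annotated genes outside the 100 lie on both sides of 0 on the TMM axis.

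Proteasome genes were the largest named group among the members. The reference annotation ties 82 genes to the proteasome by product name, location or protein domain, and 14 of them are members. This grouping was made after the members' names had been seen, and its domain-based part takes in genes of eIF3 and the COP9 signalosome, which share a domain with the proteasome lid. The 14 are an activator, core subunits, ATPases and other subunits of the regulatory particle, the inhibitor-like gene AT3G53970 and AT2G25950, a PITH domain gene.

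PA200 (AT3G13330), the proteasome activator at rank 1, was at 375, 396, 423 and 352 CPM in the 4 CALS7 libraries. In the NAC73 line it was at 52.8, 94.1, 56.1 and 133 CPM, and in the NAC57 line at 95.1, 53.5 and 68.9 CPM. Its levels were 44.9 to 65.97 CPM in CVP2-DBOX, 38.9 to 60.6 CPM in PEAR1 and 29.5 and 53.1 CPM in PEAR1-DBOX. The lowest CALS7 library was above the highest other library, NAC73 replicate 4. The margin was 4.56-fold on file totals, and log2 1.37 on the TMM scale.

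Core particle members were PAB1, PAC1, PAG1 and PBA1, which encode subunits of the barrel, and AT4G15165 and AT1G79210, which encode Ntn hydrolase proteins annotated to it. PAB1 was at 463, 407, 511 and 468 CPM in the CALS7 libraries, against 158 to 189 CPM in the NAC57 line, the next-highest, and 97.8 to 138 CPM in the NAC73 line. AT1G79210 was at 247, 204, 233 and 246 CPM in the CALS7 libraries, against 98.8 to 113 CPM in the CVP2-DBOX line. In the NAC73 line it was at 38.3, 29.2, 32.6 and 35.3 CPM, so the order of the lower lines differed between these 2 core genes. PAC1 was at 679 ± 24.7 CPM, PAG1 at 1103 ± 103 CPM and PBA1 at 553 ± 21.1 CPM in the CALS7 line (SD, n = 4), each 2.08-fold to 2.13-fold above its next-highest line.

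Regulatory particle members were RPT1A and RPT3, 2 of the ATPases that feed substrates into the core, RPN10, a receptor for ubiquitin chains, AT5G23540, a Mov34/MPN/PAD-1 family gene, and AT5G20000, an AAA-type ATPase gene annotated to the proteasome. RPT1A was at 1925, 1699, 1768 and 1819 CPM in the CALS7 libraries, 758, 746, 648 and 741 CPM in the NAC73 libraries and at most 549 CPM in any other library. AT5G20000 was at 739.9, 687, 698 and 757 CPM in the CALS7 libraries and between 186 and 239 CPM in the NAC57 line, a margin of 3.26-fold. RPT6A (AT5G19990), another ATPase of the regulatory particle, was not a member, with a mean of 857 CPM in the CALS7 line and 1070 CPM in the NAC73 line. Of the 50-base stretches of AT5G20000, 5.3% also occur elsewhere in the genome, so some reads could be assigned to more than 1 locus.

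The 14 members included, 54 of the 73 proteasome-annotated genes past the CPM minimum (74.0%) had a margin above 0, with a median of 0.42 and a range from -2.0 to 2.19. For the core particle this held for 23 of 24 genes, with a median of 0.66. The lowest value of the 73 is that of EIF3E, and EIF3A (-1.11) and FUS6, a COP9 signalosome gene (-1.12), are also low. Proteasome subunit genes such as RPT6A (-0.32) and PAD2 (-0.05) lie below 0 too. No summary was made without the genes of eIF3 and the COP9 signalosome. Summed over the 82 genes, the level was 30627 ± 1302 CPM (SD, n = 4) in the CALS7 line and between 12480 and 19078 CPM as line means elsewhere. On the TMM scale 37 of the 73 genes had a margin above 0, with a median of 0.02, and with RLE library sizes 39 did, with a median of 0.12, where the medians over all genes past the minimum were -0.82 and -0.66. The higher level of the wider proteasome set in the CALS7 line than in every other line therefore depends on the scaling.

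Promoter sequence is shown for 3 of these genes because TGGGC is a known element of plant proteasome gene promoters. PA200 is shown as the best-ranked proteasome-annotated member with a gene symbol. RPT1A and RPT3 are the 2 best-ranked of these that hold a match, so their matches were fixed by the choice. The windows are the 250 bases before the annotated gene start, 5′ to 3′ on the gene's strand, from the RefSeq TAIR10.1 genome, with TGGGC or its reverse complement GCCCA in capitals. PA200 (chr3:4330219-4330468, minus strand) has no match in this window, while RPT1A (chr1:20068501-20068750, minus strand) and RPT3 (chr5:23568802-23569051, plus strand) each have 2.
PA200: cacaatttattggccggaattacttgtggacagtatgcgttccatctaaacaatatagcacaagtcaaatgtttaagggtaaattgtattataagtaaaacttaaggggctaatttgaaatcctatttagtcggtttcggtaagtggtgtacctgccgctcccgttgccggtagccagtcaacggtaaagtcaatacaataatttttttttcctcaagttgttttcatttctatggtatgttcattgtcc
RPT1A: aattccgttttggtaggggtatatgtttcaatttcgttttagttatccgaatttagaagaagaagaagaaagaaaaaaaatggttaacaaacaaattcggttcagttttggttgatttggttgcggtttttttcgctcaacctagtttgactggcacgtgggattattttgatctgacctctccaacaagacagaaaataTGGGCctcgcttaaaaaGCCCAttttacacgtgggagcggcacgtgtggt
RPT3: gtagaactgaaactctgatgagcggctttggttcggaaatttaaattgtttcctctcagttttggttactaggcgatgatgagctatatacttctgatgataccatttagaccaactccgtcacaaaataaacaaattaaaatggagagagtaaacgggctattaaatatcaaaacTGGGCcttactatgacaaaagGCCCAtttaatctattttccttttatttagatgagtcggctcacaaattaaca
In windows of 300 bases, from 250 before to 50 after the start, TGGGC on either strand occurred in 6 of the 14 proteasome-annotated members (42.9%), in 54.9% of the 82 proteasome-annotated genes, in 21 of the 100 members, in 33.8% of the genes past the CPM minimum and in 26.2% of 26711 protein-coding nuclear genes. The element was chosen after the group had been seen. The G-box CACGTG was in the windows of 13 of the 100 members and in 10.05% of those of the genes past the CPM minimum, and CACG, the core bound by NAC factors, which every G-box also holds, was in 55 of the 100 and in 53.8%. These matches describe letters in the windows and are not binding sites.

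Ubiquitin and protein remodelling had 4 members. CDC48 (AT3G09840), an ATPase that pulls ubiquitinated proteins out of membranes and complexes, was at 2161, 2010, 1993 and 2056 CPM in the CALS7 libraries and at most 968 CPM in any other library. The remaining 3 were AT4G15420, of the UFD1 family whose members act with CDC48 in yeast and animals, PUB18, a U-box ubiquitin ligase, and AT2G33000, a gene with a ubiquitin-associated domain. AT4G15420 and PUB18 had other libraries above their lowest CALS7 library. Proteases other than the proteasome gave 5 members: AT4G21323 (subtilase family), RBL14 (rhomboid-like), AT5G35690 (zinc metalloproteinase-like), AT4G01610 (cysteine proteinase family) and AT3G25700. AT5G35690 varied least of all members, at 254, 256, 247 and 255 CPM in the CALS7 libraries, a coefficient of variation of 1.63%. Its next-highest line, NAC73, was at 125, 109.6, 118 and 137 CPM.

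Central carbon metabolism had 5 members. FBA6, a fructose-bisphosphate aldolase at rank 4, was at 87.4, 63.4, 84.5 and 66.7 CPM in the CALS7 libraries, 21.1 to 22.7 CPM in the PEAR1 line and 33.8, 8.97, 4.59 and 4.98 CPM in the NAC73 line. PGK, phosphoglycerate kinase, was at 1036, 1136, 1077 and 1148 CPM in the CALS7 libraries, between 506 and 547 CPM in the PEAR1 line and between 229 and 352 CPM in the NAC73 line. iPGAM2, a phosphoglycerate mutase, and AT5G56350, of the pyruvate kinase family, had margins of 2.22-fold and 2.25-fold. These 4 act in glycolysis. The fifth, c-NAD-MDH2, a malate dehydrogenase, was at 170 ± 36.3 CPM (SD, n = 4) in the CALS7 line, 80.8 ± 11.6 CPM in NAC73 (n = 4) and 2.91 ± 1.06 CPM in CVP2-DBOX (n = 4). NAC73 was the next-highest line for 1 of these 5 genes.

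AOX1A (AT3G22370), the alternative oxidase that lets mitochondrial electron transport bypass the cytochrome path, was at 245, 226, 222 and 234 CPM in the CALS7 libraries. The next-highest line was PEAR1-DBOX at 85.9 and 76.3 CPM, then PEAR1 at 41.2 to 52.2 CPM and NAC73 at 61.1, 33.9, 31.5 and 27.3 CPM. Levels were 13.4 to 25.4 CPM in NAC57 and 9.64 to 12.97 CPM in CVP2-DBOX. No library outside the CALS7 line reached 100 CPM. The mitochondrial read share given above was also highest in the CALS7 libraries, and its part in the level of AOX1A was not tested. Redox, detoxification and sulphur members beside it were AKR4C8 (an aldo-keto reductase), AT1G73340 (cytochrome P450), MGL (methionine gamma-lyase, which splits methionine), UGT73B4 and AT5G59070 (glycosyltransferases) and GSTU1 (glutathione S-transferase). UGT73B4 was at 154, 172, 151 and 127 CPM in the CALS7 libraries but at 67.3, 10.5, 8.00 and 165 CPM in the NAC73 libraries, so 1 NAC73 library lay within the CALS7 range.

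Cell wall genes made up 10 members. ATCSLA09, a glucomannan mannosyltransferase, was at 1635, 1213, 1608 and 1550 CPM in the CALS7 libraries and at 651, 677, 727 and 1017 CPM in the NAC73 libraries. AT5G67460, of the glycosyl hydrolase 17 family, was at 1001 ± 123 CPM (SD, n = 4) in the CALS7 line and 526 ± 111 CPM (n = 4) in the NAC73 line. CESA9 encodes a cellulose synthase subunit and CSI1 a protein that links the synthase to microtubules. UXS3 makes UDP-xylose, EXPB1 is an expansin and AGAL1 an alpha-galactosidase, with margins of 2.01-fold, 2.21-fold and 2.68-fold. LNG2 and TRM3, of the LONGIFOLIA family that acts on cell elongation, and QWRF8 formed a small group on cell shape. LNG2 was at 656, 631, 497 and 529 CPM in the CALS7 libraries and 157, 252, 153 and 229 CPM in the NAC73 libraries.

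Transport members were NAT7 (nucleobase-ascorbate transporter family), ABCG34, UMAMIT8, GLR3.4 and AT2G48060. GLR3.4, a glutamate receptor-like channel, was at 452, 397, 395 and 407 CPM in the CALS7 libraries, 151 to 242 CPM in NAC73, 134 to 232 CPM in NAC57 and at most 100.8 CPM in any other library. AT2G48060, annotated as a piezo-type mechanosensitive channel, was at 107 ± 16.5 CPM (SD, n = 4) in the CALS7 line and 50.7 ± 35.2 CPM (n = 4) in the NAC73 line, with overlap. Transcription and RNA gave 9 members. NAC028 (AT1G65910), a NAC factor on the late sieve element list, was at 629, 406, 605 and 636 CPM in the CALS7 libraries and 268 to 346 CPM in the NAC73 line. LBD41, GBF3 (which binds the G-box) and AGO2, which carries small RNAs, were at 22.8 ± 2.71, 89.0 ± 6.95 and 53.5 ± 5.95 CPM in the CALS7 line (SD, n = 4), each 2.12-fold to 2.21-fold above its next-highest line.

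Other high ranks were held by AT2G03430 and AT4G31320. AT2G03430, an ankyrin repeat gene at rank 2, was at 179.9, 172, 190.0 and 186 CPM in the CALS7 libraries, 37.6 to 44.8 CPM in the NAC57 line and 16.1, 9.93, 12.8 and 12.2 CPM in the NAC73 line. By file totals its 4 NAC73 libraries were the lowest of the 21. TMM scaling, which raises NAC73 and lowers PEAR1, does not keep this order. AT4G31320, of the SAUR family of auxin-responsive genes, was at 197, 133, 196 and 206 CPM in the CALS7 libraries, 28.5 to 53.7 CPM in the NAC73 line and 5.11 to 9.86 CPM in the CVP2-DBOX line. BIG, a large protein needed for auxin transport, was at 186, 163, 219 and 248 CPM in the CALS7 libraries and at 66.1, 120.5, 64.9 and 169 CPM in the NAC73 libraries. BIG, PA200 and AT2G26780, an ARM repeat gene, were higher in NAC73 replicates 2 and 4 than in replicates 1 and 3. The CALS7 gene was likewise higher in replicates 2 and 4 than in 1 and 3. BIG, PA200 and AT2G26780 have exon lengths of 15766, 5907 and 5956 bases, where the members' median is 1886.5. Of the other members with longer exons than AT2G26780, AT2G48060 (8403 bases), emb2410 (7962), AT1G21580 (7852), CSI1 (7205) and AT1G22060 (6817) shared this order. AT4G17140 (13366 bases), AT1G58230 (8387) and AT1G76780 (6974) did not. The part of length was not tested.

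**Figure D3:**
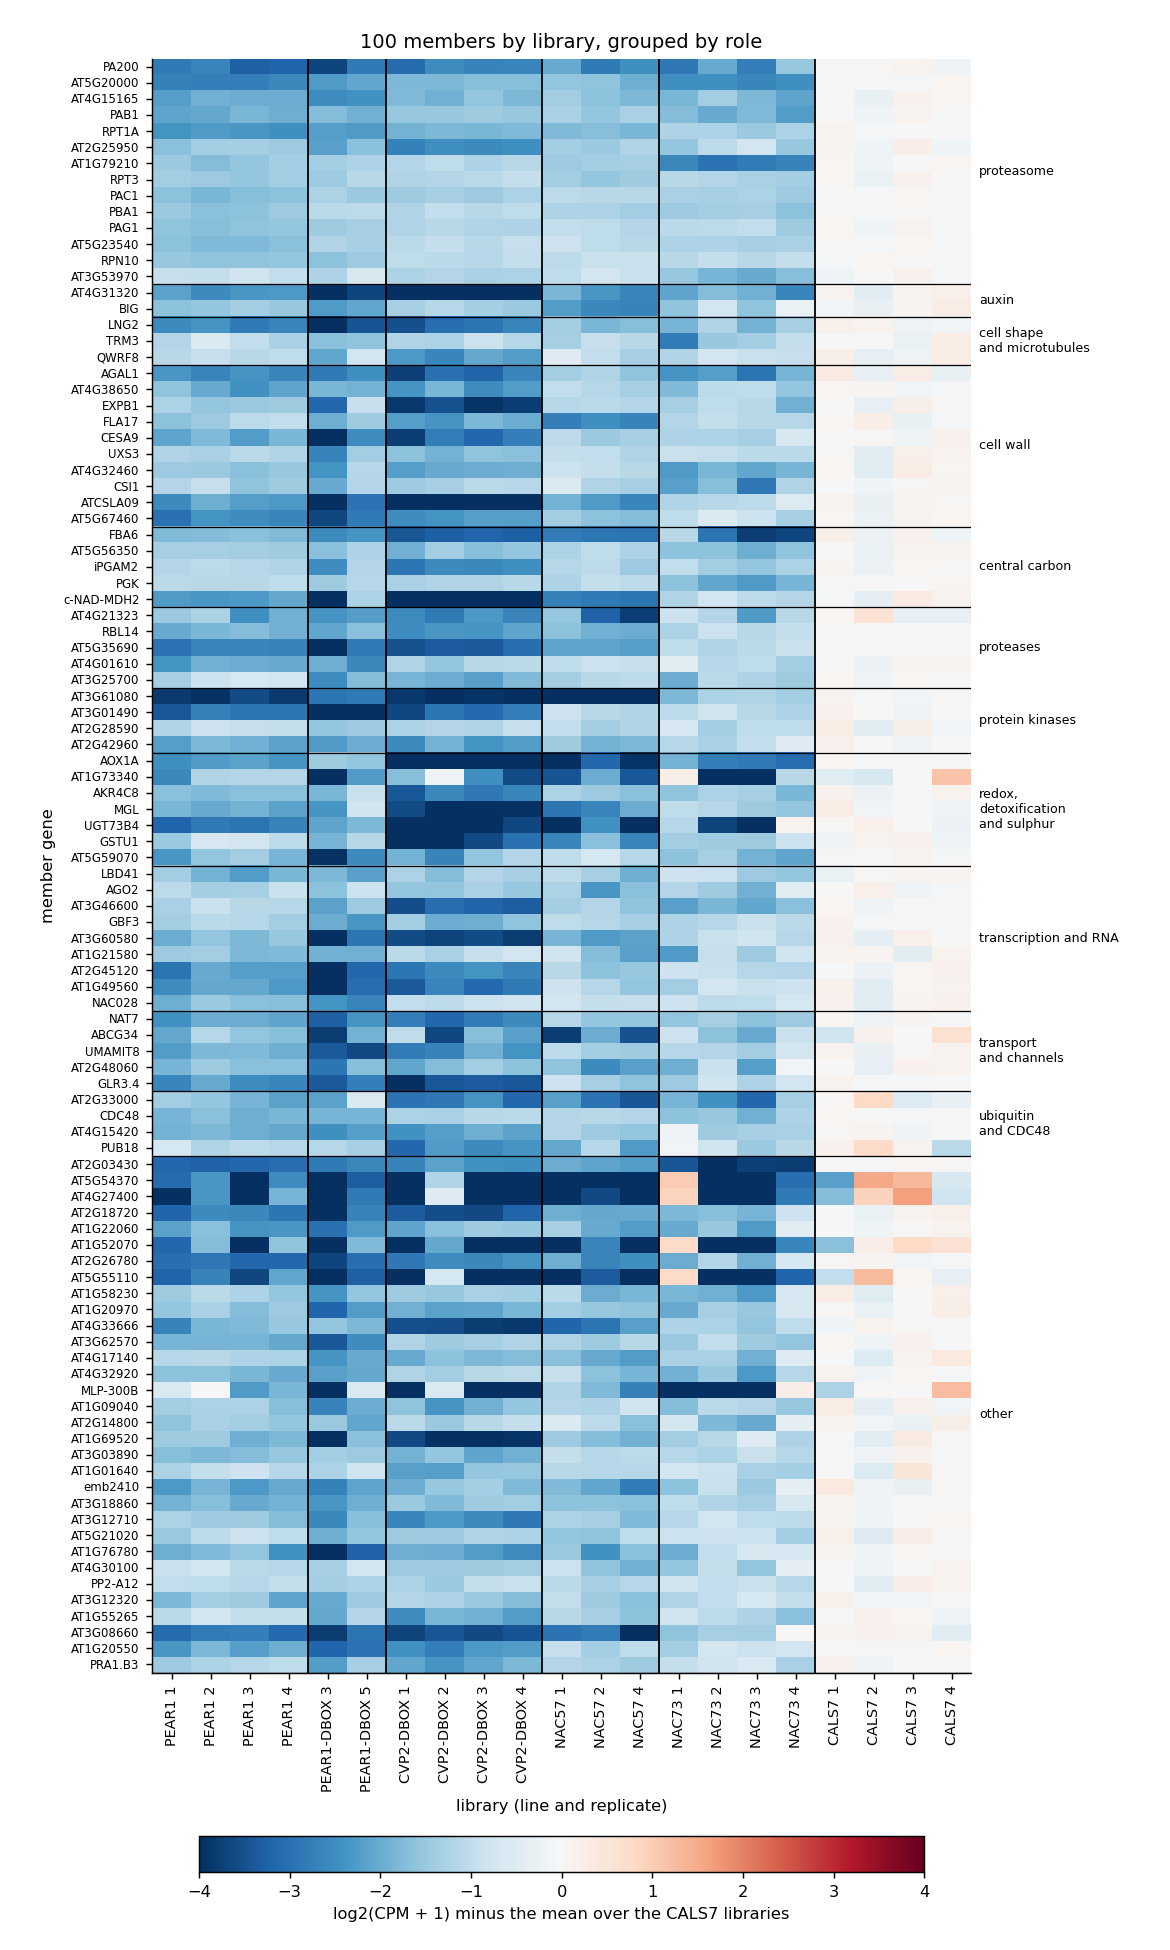
Each row is a member and each column a library, grouped by line. Colour shows log2(CPM + 1) minus the member's mean over the 4 CALS7 libraries, with blue for lower and red for higher. Most rows are blue in the 17 libraries outside the CALS7 line and near white in all 4 CALS7 columns, whereas a few rows, such as AT5G54370 and AT1G52070, are red or pale in NAC73 replicate 1.

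**Figure D4:**
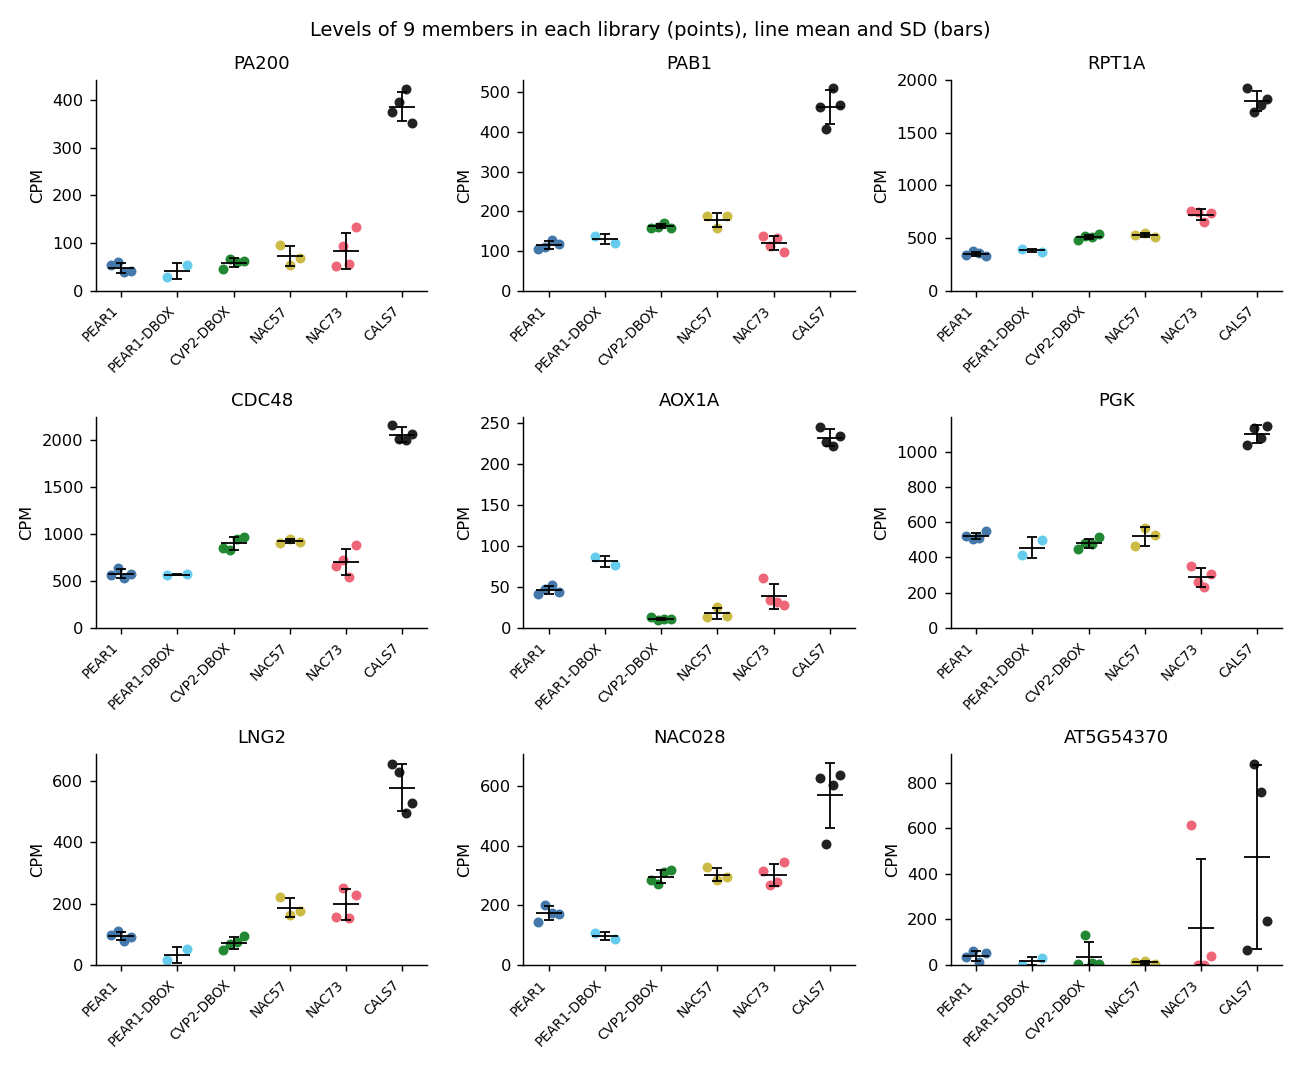
CPM of 9 members in each library (points), with the line mean and SD as bars. In 8 panels the 4 CALS7 points lie above all 17 others, and in the panel of AT5G54370 they do not.

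Most members were even over the CALS7 libraries. The median coefficient of variation was 12.3%, where it was 12.7% over all genes past the CPM minimum, and 78 members were under 20%. Above 50% were 6 members: the LEA-like genes AT4G27400 and AT5G54370, AT5G55110 (Stig1 family), MLP-300B (myrosinase-binding protein-like), AT1G73340 and AT1G52070 (mannose-binding lectin family). AT5G54370 was at 67.2, 883, 759 and 195 CPM in the CALS7 libraries and at 616, 0.927, 1.52 and 37.1 CPM in the NAC73 libraries. AT1G52070 was at 152, 586, 845 and 719 CPM in the CALS7 libraries and at 815, 0, 1.46 and 77.7 CPM in the NAC73 libraries. For both genes CALS7 replicate 1 was the lowest of its line and NAC73 replicate 1 the highest of its line. Without NAC73 replicate 1 the margin of AT5G54370 rose from 1.53 to 3.53 and that of AT1G52070 from 1.36 to 2.60. The root cap list summed to 12.9 CPM in CALS7 replicate 1 and between 24.5 and 57.9 CPM in CALS7 replicates 2 to 4, and in the NAC73 line to 41.4 CPM in replicate 1 and at most 16.8 CPM in the others. SMB, 1 of the root cap genes, was at 2.09, 4.3, 5.21 and 1.65 CPM in the CALS7 libraries and 4.96, 3.93, 0.34 and 4.38 CPM in the NAC73 libraries. A list of 5 epidermis and root hair genes summed to 1.86, 92.7, 2.3 and 21.7 CPM in the CALS7 libraries. In the NAC73 libraries it summed to at most 3.55 CPM. The part of either list in the levels of these genes was not tested. Fewer cells of a type cannot be told apart from less RNA per cell in such bulk samples.

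To see how far the choice holds in a library that did not take part in it, each CALS7 library was left out in turn, 100 genes were chosen with the other 3, and the left-out library was compared with the highest mean of another line. The level in CALS7 replicate 2 was above it for 98 of 100 genes chosen without it, in replicate 3 for 100 and in replicate 4 for 99. In CALS7 replicate 1 it was above for 64, and 30 of the genes were below 10 CPM there. Among all genes past the minimum in the other 3 libraries, between 15.7% and 22.3% were above in the left-out library. All proteasome-annotated genes chosen in these 4 rounds, 11 to 14 a round, were above. Genes that came in only without CALS7 replicate 1 included AT2G43610 (chitinase family), at 7.38 CPM in replicate 1 and 216, 250.3 and 428 CPM in replicates 2 to 4, and the lectin family gene AT1G52060, at 5.25, 112, 82.96 and 233 CPM. The means of the other 5 lines were shared by all 4 rounds and had also chosen the genes. The comparison is therefore not independent of the choice on that side. All genes past the minimum were not chosen by these means, so their share is not on equal terms with the counts.

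The rule used the highest mean among the other lines but no difference between them, so comparisons among these lines were tested. Their levels still took part in the choice, because the rule caps a member's level in each of these lines. In edgeR's quasi-likelihood test with Benjamini-Hochberg adjustment over 26074 genes, members were mostly higher in the NAC73 line than in the PEAR1 line. There, 83 of 100 passed an adjusted p of 0.05 with a higher level and 0 with a lower one, where 20.0% of all tested genes were called higher and 41.5% lower. Among the 8056 genes past the CPM minimum in the CALS7 line, which the members were drawn from, 54.6% were called higher and 19.7% lower. The members' median difference was log2 1.51 and that of all tested genes -1.19. With file totals in place of TMM, the scale on which the members were chosen, 39 members were called higher and 8 lower, with medians of 0.40 for the members and -2.15 for all tested genes. On that scale 9.78% of all tested genes were called higher and 66.5% lower, and 27.1% and 51.3% of the genes past the CPM minimum. Of the 83 calls, 11 changed sign between the scales.

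Named by size, the strongest difference between NAC73 and PEAR1 was in AT3G61080, annotated to the protein kinase superfamily. It was at 16.7, 24.8, 25.8 and 22.2 CPM in NAC73 and 3.00 to 4.17 CPM in PEAR1 (log2 3.85, SE 0.29, adjusted p = 4.74e-09, edgeR). AT3G08660, of the phototropic-responsive NPH3 family, followed at 10.9, 13.4, 13.1 and 36.1 CPM against 3.25 to 4.41 CPM (log2 3.38, SE 0.54, adjusted p = 4.53e-05, edgeR). The others of the first 6 were the kinase gene AT3G01490, AT5G67460, AT2G26780 and AT5G35690, with log2 differences of 3.10, 2.84, 2.82 and 2.79. Of the 14 proteasome-annotated members, 12 were called higher and 0 lower. RPT1A had a log2 difference of 2.16 (SE 0.13, adjusted p = 3.9e-10, edgeR). AT1G79210 was not called, at 29.2 to 38.3 CPM in NAC73 and 68.3 to 89.2 CPM in PEAR1. Its log2 difference after TMM scaling was -0.13 (SE 0.13). Over the 80 tested proteasome-annotated genes, 54 were called higher and 9 lower by TMM, and 33 higher and 30 lower by file totals, to be read against the shares of all genes on each scale given above.

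Between the NAC57 and PEAR1 lines, 34 members were called higher and 5 lower, where 13.8% of all tested genes were called higher and 20.9% lower, and 39.3% and 9.6% of the genes past the CPM minimum. The median difference was log2 0.34 for the members and -0.52 for all tested genes. With RLE library sizes the members' median was 0.03 and that of all tested genes -0.82, with 18 members called higher and 8 lower, where 6.26% of all tested genes were called higher and 25.2% lower, and 18.2% and 14.8% of the genes past the CPM minimum. AT3G01490 was higher in NAC57, at 89.3, 73.05 and 67.5 CPM against 14.2 to 23.6 CPM in PEAR1 (log2 2.18, SE 0.34, adjusted p = 0.000222, edgeR). AGAL1, GLR3.4, AT4G01610, AT1G49560 (a homeodomain-like gene) and AT2G03430 followed, with log2 differences from 1.45 to 1.27. The 5 called lower were AT3G61080, FLA17 (a fasciclin-like arabinogalactan protein), AOX1A, GSTU1 and BIG. AOX1A fell by 1.17 on the log2 scale (SE 0.22, adjusted p = 0.00098, edgeR). The calls of GSTU1 and BIG ended when any of several single libraries was left out. Of the 14 proteasome-annotated members 10 were called higher and 0 lower, against 24 higher and 5 lower of the 86 other members. Over all 80 tested proteasome-annotated genes, 63 were called higher and 2 lower, so the count is not particular to the members.

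Members moved in both directions between the CVP2-DBOX and PEAR1 lines, with 17 called higher and 23 lower, where 12.2% of all tested genes were called higher and 15.2% lower, and 31.0% and 21.8% of the genes past the CPM minimum. The members' median was log2 -0.14 and that of all tested genes -0.20. Proteasome-annotated members were 10 of the 17 called higher and 1 of the 23 called lower. Over all 80 tested proteasome-annotated genes, 57 were called higher and 2 lower. AT5G20000 was at 205, 208, 220.2 and 219.9 CPM in CVP2-DBOX and 106 to 121 CPM in PEAR1 (log2 1.15, SE 0.14, adjusted p = 9.65e-06, edgeR). AT4G01610, NAC028, AT2G03430, AT5G23540 and CDC48 were the next higher, with log2 differences from 1.06 to 0.85. Among those called lower, c-NAD-MDH2 was at 2.50, 2.11, 2.54 and 4.47 CPM in CVP2-DBOX and 32.6 to 40.0 CPM in PEAR1 (log2 -3.40, SE 0.45, adjusted p = 2.59e-05, edgeR). ATCSLA09 was at 29.8 to 52.6 CPM against 257 to 384 CPM (log2 -2.69, SE 0.40, adjusted p = 6.92e-05, edgeR). AT4G33666 (uncharacterised), AT1G69520 (a methyltransferase family gene), GSTU1 and AT3G60580 (a zinc finger gene) were also among the 6 with the largest falls. Of the 7 redox, detoxification and sulphur members 4 were lower and 0 higher, and of the 5 central carbon members 3 were lower and 0 higher.

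Between the NAC73 and NAC57 lines, 75 members were called higher in NAC73 and 2 lower, where 15.9% of all tested genes were called higher and 21.4% lower, and 38.4% and 27.6% of the genes past the CPM minimum. The members' median was log2 1.13 and that of all tested genes -0.30. By file totals 22 were called higher and 14 lower, with a members' median of 0.22 against -1.13 for all tested genes, and 17 of the 77 calls changed sign. On that scale 9.36% of all tested genes were called higher and 40.3% lower, and 21.9% and 56.5% of the genes past the CPM minimum. AT3G61080 was at 16.7 to 25.8 CPM in NAC73 and 0.771 to 1.11 CPM in NAC57 (log2 5.43, SE 0.36, adjusted p = 2.66e-09, edgeR). AT3G08660, UGT73B4, AT4G33666, FLA17 and c-NAD-MDH2 had log2 differences from 3.61 to 2.76. The call of UGT73B4 ended when only the libraries of these 2 lines were fitted. The 2 lower in NAC73 were AT2G03430, which fell by 0.82 on the log2 scale (SE 0.15, adjusted p = 0.000305, edgeR), and AT1G79210, which fell by 0.48 (SE 0.14, adjusted p = 0.00921, edgeR). The call of AT1G79210 was lost with DESeq2, with RLE size factors, with voom and when only the 2 lines were fitted. Over the 80 proteasome-annotated genes the median difference was log2 0.34 with TMM and -0.56 by file totals, so that its direction flips with the scaling.

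**Figure D5:**
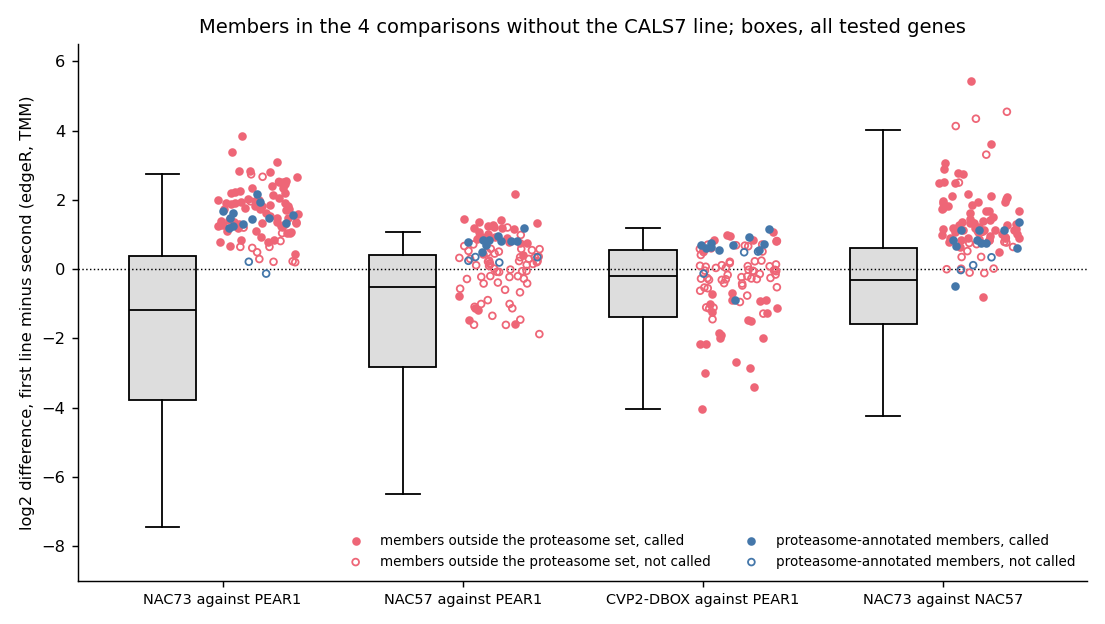
Log2 difference between 2 lines (edgeR with TMM, vertical axis) in the 4 comparisons that leave out the CALS7 line. Points are the 100 members (filled where called at an adjusted p of 0.05, blue for the 14 proteasome-annotated ones) and boxes give the median, quartiles and 5th to 95th percentiles of all 26074 tested genes. Members sit mostly above 0 in the 2 comparisons of NAC73, and on both sides of it between CVP2-DBOX and PEAR1.

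In none of the 4 comparisons was a difference called for 11 members, among them PGK and AT3G53970, where this held for 7.4% of the genes past the CPM minimum and 25.5% of all tested genes. PGK had log2 differences between 0.01 and 0.21 with SE of 0.12 or 0.13 after TMM scaling. By file totals it was not level among these lines. Its mean was 286 CPM in NAC73, 521 CPM in PEAR1, 518 CPM in NAC57 and 480 CPM in CVP2-DBOX.

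Some features that the rule did not use are given beside those of the genes the members were drawn from. The median coding length was 1248 bases against 1254. Kinases by product name were 6.0% of the members and 5.98% of the 8056 genes, transporters 2.0% and 1.86%, transcription factors 1.0% and 1.43%, and hydrolases 6.0% and 3.40%. The hydrolases include the core particle members AT4G15165, AT1G79210 and PBA1, by their Ntn hydrolase names. Chromosome 2 held 21 members (15.3% of the genes past the minimum) and chromosome 5 held 16 (24.0%). A pair of close neighbours on chromosome 4 was PBA1 with AT4G31320, which have 1 gene between them, and RPN10 with AT4G38650 formed another. Of the members, 36 overlap another annotated gene and 31 overlap one on the opposite strand. Since the strand setting of the counting is not stated, reads of such partners cannot be told apart. For 6 members more than 5% of their 50-base stretches occur elsewhere in the genome, the highest being AT2G14800 with 29.6%.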

How the data were processed

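RNA of 21 libraries from 6 reporter lines was measured by sequencing. The files hold raw read counts per gene, deposited by the authors with no normalisation, for 33602 genes. The tools named per the submitters' processing notes are featureCounts, Bowtie2 and edgeR, and the build is TAIR10. The sources used here give no versions and no strand setting. Per the labels' protocols, cDNA was amplified with 18 PCR cycles before library construction, so reads are not independent molecules. Totals were 23513921 to 36198012 counts per library.

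Levels are counts scaled by file total (CPM). Tests used edgeR 4.0.16 in R 4.3.3: all libraries in 1 fit with a coefficient per line, TMM, filterByExpr (26074 genes), robust quasi-likelihood F tests, and a threshold of 0.05 on Benjamini-Hochberg adjusted p. The fit's common dispersion was 0.377. The procedure was tested on simulated data, where for NAC73 against PEAR1 it recovered 57.6% of 66 genes changed 8-fold and 14.5% of 62 changed 2-fold among 24598 genes. Of its calls there, 1.35% were false. In the other comparisons the share of false calls was 3.64% to 6.67%, and 4.11% to 11.1% of genes changed 2-fold were recovered. In the simulation the lines otherwise shared a common mean for each gene and few genes were changed. In the data 20.0% of tested genes were called higher and 41.5% lower for NAC73 against PEAR1. The shares recovered therefore do not carry over to these tests. DESeq2 1.42.0, voom in limma 3.58.1, other scalings, filters and left-out libraries were alternatives. Names, positions and sequences come from RefSeq TAIR10.1, which held 32835 of the gene codes. Gene codes were matched by name, and positions were taken only from that reference. The members and all gene lists were chosen with earlier results of these data known. Named genes are ranks 1 to 25 and 96 to 105, the 6 highest and 6 lowest called members of each comparison, members on the lists, and those with the highest or lowest coefficient of variation. Of these, 1 gene outside the 100 is not reported here. Other members are named by role, chosen after their values were seen.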

Additional observations from a re-analysis of the deposited data

Results flagged for a closer look

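Across 47 values (the sums over the members and over the proteasome-annotated genes, the first 25 members and the members named in the comparisons), each line of 4 libraries with a mean of at least 20 CPM was scanned with Dixon's criterion for 1 library far from its 3 fellows. Of 136 pairs of value and line, 15 were past its 95% critical value, where chance flags about 1 in 20 groups. Their part in the results was not tested.

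NAC73 replicate 1 stood apart upward for 4 genes. It held AT5G54370 at 616 CPM, AT4G27400 at 75.8 CPM, AT1G52070 at 815 CPM and AT5G55110 at 86.3 CPM, while the other NAC73 libraries were at most at 37.1, 4.89, 77.7 and 4.68 CPM. CVP2-DBOX replicate 2 stood apart for 2 of the same genes, with AT5G54370 at 132 CPM and AT1G52070 at 116 CPM. In the CALS7 line, replicate 2 was low for AT4G31320 at 133 CPM, for AT5G67460 at 819.6 CPM and for NAC028 at 406 CPM, and replicate 4 was low for AT3G08660 at 26.1 CPM. RPT1A was low in NAC73 replicate 3 at 648 CPM, and GSTU1 was high in NAC73 replicate 4 at 35.4 CPM. GLR3.4 was high in PEAR1 replicate 2 at 100.8 CPM and low in CVP2-DBOX replicate 1 at 23.5 CPM. PAB1 was high in CVP2-DBOX replicate 3 at 170.0 CPM, where the other libraries were at 159 to 160.3 CPM.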

How the results depend on the processing

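File totals in place of TMM changed the sign of 11 of 83 member calls for NAC73 against PEAR1, of 17 of 77 for NAC73 against NAC57 and of 0 in the other 2 comparisons, and the number of calls moved with both scaling and test. Applied again, the rule kept 47 members with TMM and 38 with RLE library sizes, 67 without CALS7 replicate 1 and 87 to 100 without any other single library. The median proteasome margin of 0.42 moved to 0.016 with TMM and 0.12 with RLE, and to 0.40 to 0.45 with libraries left out. For NAC73 against PEAR1, file totals gave 39 members higher and 8 lower and 33 proteasome genes higher and 30 lower. Members lower were 3 with NAC73 replicates 2 and 3 only, 2 with voom and 0 to 1 with libraries left out, and proteasome genes lower were 3 with NAC73 replicates 1 and 4 only and 5 with only the 2 lines fitted. For NAC57 against PEAR1, members higher were 22 with PEAR1 replicates 1 and 3 only and 18 with RLE; members lower were 11 with DESeq2, 3 with PEAR1 1 and 3 only, 8 with RLE, 9 with only the 2 lines, 10 with voom and 3 to 6 with libraries left out, the 3 arising without NAC57 replicate 4 or without PEAR1 replicate 2, 3 or 4. Proteasome genes higher there were 40 with DESeq2, 40 with PEAR1 1 and 3 only and 34 with RLE, and lower 0 with PEAR1 1 and 3 only, 1 without the filter, 1 with only the 2 lines and 0 to 1 with libraries left out. For CVP2-DBOX against PEAR1, members higher were 26 with voom, members lower 13 with PEAR1 1 and 3 only and 38 with only the 2 lines, and proteasome genes lower 0 with PEAR1 1 and 3 only, 4 with voom and 1 to 2 with libraries left out. For NAC73 against NAC57, file totals gave 22 members higher and 14 lower and 12 proteasome genes higher and 45 lower. Members lower were 1 with DESeq2, RLE, voom or only the 2 lines, and proteasome genes lower were 12 with RLE and 8 with only the 2 lines. Alternatives on file totals, on the proteasome set and on single margins were chosen after seeing the data, and the cause of these shifts was not tested beyond the scaling factors themselves. Replicate numbers shared between lines did not pair libraries (correlations of same-numbered deviations from -0.139 to 0.199). With the replicate number as a block, 3 members instead of 5 were lower in NAC57 against PEAR1, and every other count of members stayed within 1.5 times. Named differences past the test kept their sign under every alternative tried. The calls lost were those of BIG, GSTU1, UGT73B4 and AT1G79210, leaving aside the fits with only 2 replicates of a line. In those fits lost calls were not followed gene by gene. With PEAR1 replicates 1 and 3 only, 25 of the 39 members called for NAC57 against PEAR1 were still called. With NAC73 replicates 1 and 4 only, 58 of the 77 called for NAC73 against NAC57 were. The left-out single libraries leave the spread to be estimated from all lines together. Depth limits members with few reads outside the CALS7 line, such as AT4G33666, at 0 to 0.278 CPM in CVP2-DBOX.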
